A study of Mus musculus with 12 samples.

Results

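The 58 genes described here drive the cell cycle and copy the DNA, and they were picked by gene symbol from a table of 17995 mouse genes. They fell into 10 cyclins, kinases and a phosphatase of the step from G1 into S phase, 19 genes of DNA replication, 24 genes of mitosis and 5 transcription factors that control both programmes. RNA-seq values were available for 12 libraries, 3 in each of 4 groups. C18-4, a mouse line named as spermatogonial stem cells, and TM4, a mouse line named as Sertoli cells, were each infected with a lentivirus that carried shM5 or shNC. shM5 was a mixture of 3 short hairpin RNAs against the muscarinic acetylcholine receptor M5, a Gq-coupled receptor encoded by Chrm5, and shNC was a control hairpin. Control cells therefore also carried a lentivirus and a hairpin, and no group without virus was analysed here. Each line stands for 1 established culture, the labels give the strain as IRC, and nothing states that the 3 libraries of a group came from separate cultures, so the p-values measure the spread between these libraries, which may be technical.

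In a dividing cell, D-type cyclins with Cdk4 and Cdk6, and then E-type cyclins with Cdk2, inactivate the retinoblastoma proteins and free the E2F factors, which switch on the genes of DNA replication. MCM helicases are loaded on origins by Cdc6 and Cdt1, and the polymerases, Pcna and the enzymes of nucleotide supply then make the new strands. Later in the cycle, the MuvB complex with Mybl2 and Foxm1 switches on the genes of mitosis, among them Cdk1, B-type cyclins, Plk1, the Aurora kinases and the checkpoint kinases. Spermatogonial stem cells divide throughout adult life, whereas Sertoli cells divide in the young testis and then stop. Both lines studied here are established lines that are grown in culture.

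Chrm5 was listed at 0 or 0.01 RPKM in all 12 libraries, so its values cannot check the knockdown. Relative to the labels, 9 of 10 germ cell markers were in the table, and 8 of these had a mean below 0.5 RPKM in C18-4 cells; Id4, a marker of stem spermatogonia, lay between 1.64 and 4.71 RPKM. The transcription factor Wt1, which marks Sertoli cells, was at 53.9 to 72.3 RPKM in C18-4 libraries and at 0.06 to 0.15 RPKM in TM4 libraries. In TM4 cells Sox9 lay between 1.11 and 1.74 RPKM and Amh at 0.08 to 0.19 RPKM. The lines are called by their names below. Summed fibroblast or myoid markers, a list of 7 genes, were at 343 to 538 RPKM in C18-4 libraries, and at 563 to 919 RPKM in TM4 shNC and 1014 to 1120 RPKM in TM4 shM5 libraries. The C18-4 sum was mostly Col1a1, at 287 to 386 RPKM. Col1a2 was at 0.08 to 0.19 RPKM and Pdgfra at 0.81 to 1.85 RPKM in C18-4 libraries, against 297 to 566 and 11.9 to 30.7 RPKM in TM4 libraries. Acta2 and Tagln were at 15.9 RPKM or more in every library. Macrophage markers summed to at most 4.28 RPKM and Leydig cell markers to at most 1.58 RPKM in any library. The value of 1 read, taken from the steps between low values, ran from 0.983 to 1.019 across libraries on a relative scale over 96 genes. Genes were kept only where their values lay near whole multiples of the lowest value. Larger differences in depth would thus be dropped or absorbed, so these values do not show equal depth. The depth itself is unknown.

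Some libraries stood apart by their expression, and this touched every comparison below. TM4 shNC replicate 3 lay with the shM5 libraries: its root mean square distance over all tested genes was 0.20 to 0.26 on the log2 scale from the 3 shM5 libraries and 0.64 from each of the other shNC libraries. In C18-4 cells, replicate 3 of both groups stood apart from replicates 1 and 2. A list of 10 stress genes, made up of the stress factor Atf4 and genes linked to it, moved with these libraries in its sum. Its summed level was 2332 RPKM at the highest in TM4 shNC cells and 1178 RPKM in the lowest library of that group, which was replicate 3, against 1117 to 1145 RPKM in the shM5 cells. In C18-4 cells it reached 1580 RPKM in shNC replicate 3 and 1518 RPKM in shM5 replicate 3. Chac1, a glutathione-degrading enzyme of this list, was at 176, 162 and 17.9 RPKM in TM4 shNC, 13.1, 13.5 and 10.95 RPKM in TM4 shM5, 35.01, 37.7 and 107 RPKM in C18-4 shNC and 35.7, 36.2 and 96.1 RPKM in C18-4 shM5. Ddit4, also of this list, was at 38.9, 36.8 and 17.1 RPKM in TM4 shNC and 28.6, 29.1 and 20.9 RPKM in TM4 shM5. Unlike the sum, its shNC replicate 3 lay below every TM4 shM5 library. The part of this stress state in the cell cycle values was not tested.

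Replication and mitosis genes differ in the sequence before their start sites, which the selection of the genes did not use. Promoter windows from 250 bases before to 50 bases after the start were taken from RefSeq on build GRCm38.p6, and 46 of the 58 genes had one. The stretches of 160 bases directly upstream of the start site are shown for 3 replication genes and 4 mitosis genes. These genes were chosen as examples after the matches were seen. Some genes that are not shown, such as Mcm3, held more matches in their windows than some of those shown, such as Cdc6. Capitals mark matches that lie within the stretch to TTTNNCGC, a form of the E2F site, to TTTGAA or TTTAAA, forms of the cell cycle homology region, and to CCAAT, the NF-Y box, on either strand. A match on the opposite strand appears as its reverse complement, and TTTAAA is its own reverse complement.

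The replication genes come before the mitosis genes, each with its place on the chromosome.
Mcm5 (a subunit of the replicative helicase; chr8:75109349-75109508, plus strand): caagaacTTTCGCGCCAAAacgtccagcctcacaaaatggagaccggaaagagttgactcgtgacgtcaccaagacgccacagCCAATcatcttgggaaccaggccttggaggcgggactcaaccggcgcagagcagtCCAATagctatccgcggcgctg
Mcm6 (another helicase subunit; chr1:128359706-128359865, minus strand): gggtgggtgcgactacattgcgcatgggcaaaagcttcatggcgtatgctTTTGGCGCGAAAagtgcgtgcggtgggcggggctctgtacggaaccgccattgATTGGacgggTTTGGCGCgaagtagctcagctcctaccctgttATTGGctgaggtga
Cdc6 (the helicase loader; chr11:98907991-98908150, plus strand): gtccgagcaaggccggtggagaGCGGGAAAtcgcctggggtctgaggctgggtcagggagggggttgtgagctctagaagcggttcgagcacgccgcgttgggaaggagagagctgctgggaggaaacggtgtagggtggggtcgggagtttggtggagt
Cdk1 (the mitotic kinase; chr10:69352913-69353072, minus strand): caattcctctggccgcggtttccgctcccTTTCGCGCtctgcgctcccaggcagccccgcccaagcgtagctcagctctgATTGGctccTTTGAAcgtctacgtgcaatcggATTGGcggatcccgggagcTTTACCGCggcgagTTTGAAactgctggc
Ccnb1 (cyclin B1, its partner; chr13:100786487-100786646, minus strand): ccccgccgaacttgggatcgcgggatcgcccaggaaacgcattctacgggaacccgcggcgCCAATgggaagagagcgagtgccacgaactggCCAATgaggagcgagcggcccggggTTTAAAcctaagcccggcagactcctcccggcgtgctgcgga
Plk1 (Polo-like kinase 1; chr7:122159275-122159434, plus strand): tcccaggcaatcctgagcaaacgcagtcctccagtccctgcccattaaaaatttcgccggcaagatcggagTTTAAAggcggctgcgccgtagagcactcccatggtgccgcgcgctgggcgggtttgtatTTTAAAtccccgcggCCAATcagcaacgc
Mki67 (the proliferation antigen Ki-67; chr7:135716380-135716539, minus strand): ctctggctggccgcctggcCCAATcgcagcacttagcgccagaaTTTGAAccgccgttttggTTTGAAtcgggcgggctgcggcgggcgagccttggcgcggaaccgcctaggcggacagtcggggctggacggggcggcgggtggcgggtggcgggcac

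Mcm5 and Mcm6 each hold overlapping matches to the E2F form on opposite strands, at 142 to 153 bases and at 99 to 110 bases upstream, and Mcm6 has another at 40 to 47 bases. Cdk1 holds all 3 motifs, with E2F forms at 124 to 131 and 22 to 29 bases and TTTGAA at 66 to 71 and 10 to 15 bases upstream. Ccnb1, Plk1 and Mki67 hold CCAAT and TTTGAA or TTTAAA and no E2F form in this stretch. Over the 300-base windows, the E2F form was in 8 of 15 replication genes (53.3%) and in 1 of 21 mitosis genes (4.76%), which was Cdk1, against 5.93% of 27025 genes with a promoter. TTTGAA or TTTAAA was in 17 of 21 mitosis genes (81.0%) and 5 of 15 replication genes (33.3%), against 30.6% of all genes. CCAAT was in 17 of 21 mitosis genes (81.0%) and 11 of 15 replication genes (73.3%), against 41.1% of all genes. Of the other members, 3 of 6 G1/S genes and 1 of 4 transcription factor genes held the E2F form. Genes outside the 58 differed in the same direction when both strands were searched. The E2F form was in 26.7% of 30 other replication genes and 17.2% of 29 other mitosis genes, and TTTGAA or TTTAAA in 26.7% and 69.0%. On the strand of the gene alone, the E2F form was in 3 of the 30 and 4 of the 29, so its direction was not kept. TTTGAA or TTTAAA kept its direction there, in 5 of the 30 and 17 of the 29. A match is a description of letters and not a site of binding.

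All 58 genes were expressed in both lines and passed the filter of a mean of at least 0.5 RPKM (reads per kilobase of transcript per 1000000 mapped reads). The median member had a mean of 62.3 RPKM in C18-4 cells and 51.6 RPKM in TM4 cells, against medians of 13.7 and 14.0 RPKM over the genes tested in these lines. Members ran from 11.5 RPKM (Cdk6) to 409 RPKM (Pcna) in C18-4 cells and from 9.02 RPKM (E2f7) to 403 RPKM (Cdk4) in TM4 cells. These are bulk values, in which fewer cells in a phase of the cycle and less RNA per cell cannot be told apart.

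**Figure D1:**
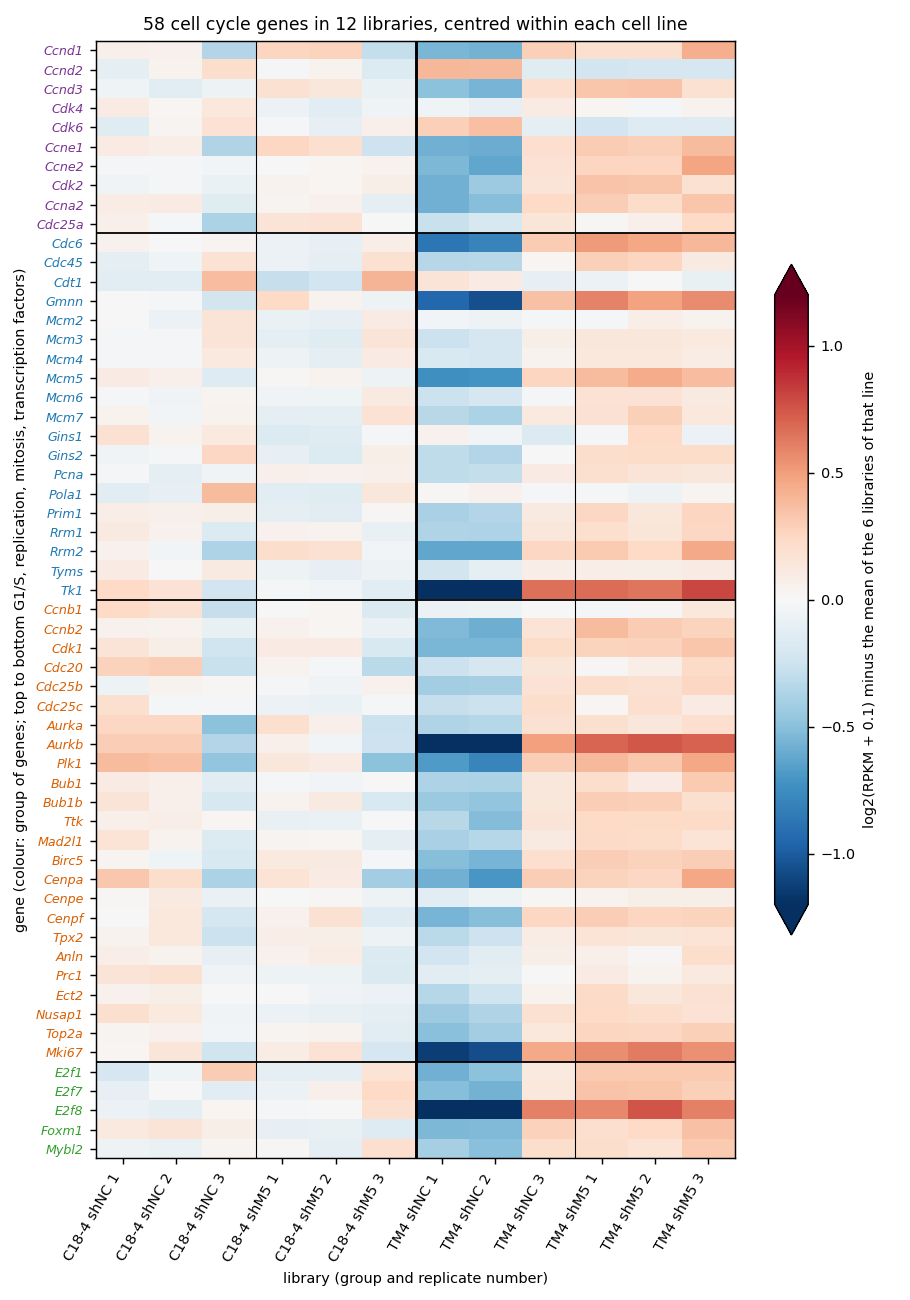
Each row is a gene and each column a library; the colour is log2(RPKM + 0.1) minus the mean of the 6 libraries of the same line, red for higher and blue for lower, and values beyond 1.2 are drawn at the end of the scale. TM4 shNC replicates 1 and 2 are blue in nearly every row while replicate 3 has the colours of shM5, with Ccnd2 and Cdk6 the other way round, and in C18-4 cells replicate 3 is blue for mitosis genes such as Plk1 and Aurka.

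In TM4 cells, mean levels of 54 of the 58 genes were higher with shM5 than with shNC, including all 24 mitosis genes and all 5 transcription factors, but none of them passed the test with all libraries, and shNC replicate 3 lay near the shM5 libraries. Ccnd2, Cdk6, Cdt1 and Pola1 were the 4 with a lower mean. The median log2 fold change was 0.43 over the members and 0.04 over the 11016 genes tested, and by group it was 0.56 for G1/S genes, 0.40 for replication, 0.42 for mitosis and 0.63 for the transcription factors. With all 6 libraries, limma called 0 genes at an adjusted p below 0.05 (0% of genes tested), members included, and the smallest adjusted p was 0.192. At an unadjusted p below 0.05 it gave 42 of 58 members, where all genes gave 2866 (26.0%). Without shNC replicate 3, 50 members were called higher and 3 lower (Ccnd2, Cdk6 and Cdt1), with 36.5% of all genes higher and 30.9% lower, and the median over the members was 0.60. That fit compares 3 libraries with 2. The library left out was singled out because its values, in these same data, lay near those of shM5. The limma p-values of that fit, here and below, depend on this choice and cannot be taken at face value.

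Among the G1/S genes of TM4 cells the D-type cyclins, which bind Cdk4 and Cdk6, had differences of opposite sign. Ccnd1 was at 69.4, 68.8 and 125 RPKM in the TM4 shNC libraries and 117, 117 and 138 RPKM in the TM4 shM5 libraries. Ccnd2 was at 102, 101 and 69.6 RPKM in the TM4 shNC libraries and 65.9, 66.9 and 66.8 RPKM in the TM4 shM5 libraries. Replicates 1 and 2 of shNC had the lowest Ccnd1 and the highest Ccnd2 of the 6 libraries, with replicate 3 near the shM5 values. The log2 fold change of Ccnd1 was 0.55 ± 0.24 (SE, limma, adjusted p = 0.192) with all libraries and 0.83 ± 0.08 (adjusted p = 4.73e-05) without shNC replicate 3. For Ccnd2 it was -0.42 ± 0.15 (SE, limma, adjusted p = 0.192) and -0.60 ± 0.04 (adjusted p = 7.03e-06). Ccne1, which encodes cyclin E1, the partner of Cdk2, was at 19.7, 19.5 and 33.9 RPKM in the TM4 shNC libraries and 36.4, 35.96 and 38.3 RPKM in the TM4 shM5 libraries, where the groups did not overlap. Cdc25a, a phosphatase that activates Cdk2, was at 12.5, 13.2 and 16.7 RPKM in the TM4 shNC libraries and 15.2, 15.7 and 17.8 RPKM in the TM4 shM5 libraries, where they did. Ccnd3, Ccne2, Cdk2 and cyclin A2 (Ccna2) had log2 fold changes between 0.57 and 0.66 with all libraries. The kinase Cdk6 had -0.36, and Cdk4 had 0.03, whose sign turned when libraries were scaled to equal sums or by median ratios.

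The replication genes with the largest fold changes were Tk1, Gmnn and Cdc6. Tk1, the thymidine kinase of S phase, was at 14.8, 14.04 and 59.7 RPKM in the TM4 shNC libraries and 60.2, 59.1 and 66.1 RPKM in the TM4 shM5 libraries. shNC replicates 1 and 2 stood far below every other TM4 library. Gmnn encodes geminin, the inhibitor of Cdt1, and was at 14.1, 13.1 and 34.6 RPKM in the TM4 shNC libraries and 40.9, 37.98 and 40.2 RPKM in the TM4 shM5 libraries. Cdc6 was at 8.83, 9.26 and 19.99 RPKM in the TM4 shNC libraries and 23.1, 22.4 and 21.4 RPKM in the TM4 shM5 libraries. All 3 genes were lowest in shNC replicates 1 and 2, and the groups did not overlap for Gmnn and Cdc6. Without shNC replicate 3, log2 fold changes were 2.09 ± 0.06 (SE, limma, adjusted p = 3.68e-07) for Tk1, 1.54 ± 0.06 for Gmnn and 1.29 ± 0.06 for Cdc6, against 1.41 ± 0.54, 1.09 ± 0.36 and 0.91 ± 0.31 with it. Mcm5 was at 41.8, 42.5 and 83.6 RPKM in the TM4 shNC libraries and 90.8, 94.8 and 90.1 RPKM in the TM4 shM5 libraries. Rrm2, the small subunit of ribonucleotide reductase, was at 66.2, 65.9 and 121 RPKM in the TM4 shNC libraries and 127, 120.0 and 139 RPKM in the TM4 shM5 libraries. In both genes shNC replicate 3 was close to the shM5 libraries, and in Rrm2 it lay among them. Pcna, the sliding clamp of the polymerases, was at 213, 215 and 281 RPKM in the TM4 shNC libraries and 301, 293 and 288 RPKM in the TM4 shM5 libraries, and its log2 fold change was 0.32 ± 0.12, or 0.46 ± 0.04 (adjusted p = 2.88e-05) without shNC replicate 3. Gins1, a subunit of the GINS complex, was at 17.4, 16.4 and 14.9 RPKM in the TM4 shNC libraries and 16.5, 19.8 and 16.01 RPKM in the TM4 shM5 libraries and had 0.10 ± 0.11. The other helicase subunits Mcm2, Mcm3, Mcm4, Mcm6 and Mcm7 ran from 0.07 to 0.40, below the 0.79 of Mcm5. Cdt1 and Pola1, the catalytic subunit of the primase polymerase, were at -0.10 and -0.03.

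Mitosis genes were higher in all 24 cases, though by very different amounts. Aurkb, the kinase of the chromosomal passenger complex, was at 12.03, 12.2 and 42.7 RPKM in the TM4 shNC libraries and 49.5, 50.9 and 49.7 RPKM in the TM4 shM5 libraries. Mki67 was at 26.6, 27.9 and 80.2 RPKM in the TM4 shNC libraries and 86.1, 90.1 and 85.1 RPKM in the TM4 shM5 libraries. Both were lowest in shNC replicates 1 and 2, and in neither gene did the groups overlap. Their log2 fold changes were 1.44 ± 0.48 and 1.16 ± 0.41, and 2.04 ± 0.04 (SE, limma, adjusted p = 2.05e-07) and 1.68 ± 0.05 without shNC replicate 3. Cdk1 was at 23.8, 23.9 and 40.8 RPKM in the TM4 shNC libraries and 42.1, 42.5 and 44.1 RPKM in the TM4 shM5 libraries. Top2a, the topoisomerase that untangles chromosomes, was at 74.2, 78.5 and 115 RPKM in the TM4 shNC libraries and 126, 124 and 128 RPKM in the TM4 shM5 libraries. Birc5, which encodes survivin of the same passenger complex, was at 70.6, 68.2 and 116 RPKM in the TM4 shNC libraries and 123, 122 and 124 RPKM in the TM4 shM5 libraries. These 3 genes had lower values in shNC replicates 1 and 2 and shNC replicate 3 just under the shM5 libraries. Nusap1, a spindle protein, was at 17.5, 18.5 and 27.1 RPKM in the TM4 shNC libraries and 28.1, 27.5 and 26.8 RPKM in the TM4 shM5 libraries, so that its groups overlapped. Cyclin B1 differed little, as Ccnb1 was at 62.9, 63.6 and 66.4 RPKM in the TM4 shNC libraries and 65.7, 66.7 and 72.03 RPKM in the TM4 shM5 libraries. Cdc20, the activator of the anaphase-promoting complex, was at 49.8, 51.8 and 65.7 RPKM in the TM4 shNC libraries and 59.96, 62.9 and 69.9 RPKM in the TM4 shM5 libraries. The log2 fold change of Ccnb1 was 0.08 ± 0.07, the smallest of the 24, and 0.11 ± 0.05 (adjusted p = 0.0938) without shNC replicate 3, where it was the mitosis gene that did not pass the test. Ccnb2, its close relative, had 0.87 ± 0.05 (adjusted p = 4.77e-06) in the same fit.

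E2f8, a repressor of the E2F family, was at 3.62, 3.52 and 13.4 RPKM in the TM4 shNC libraries and 13.1, 14.8 and 13.4 RPKM in the TM4 shM5 libraries. E2f1, an activator of the family, was at 11.2, 11.95 and 18.3 RPKM in the TM4 shNC libraries and 20.9, 20.9 and 20.95 RPKM in the TM4 shM5 libraries. Foxm1, the factor of the mitotic programme, was at 32.6, 32.8 and 57.5 RPKM in the TM4 shNC libraries and 54.3, 55.9 and 60.5 RPKM in the TM4 shM5 libraries. All 3 were lowest in shNC replicates 1 and 2, and for E2f8 and Foxm1 shNC replicate 3 lay within the range of the shM5 libraries. Without shNC replicate 3 all 5 factors rose, with log2 fold changes from 0.68 for Mybl2 to 1.92 ± 0.08 for E2f8 (adjusted p = 1.13e-06).

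**Figure D2:**
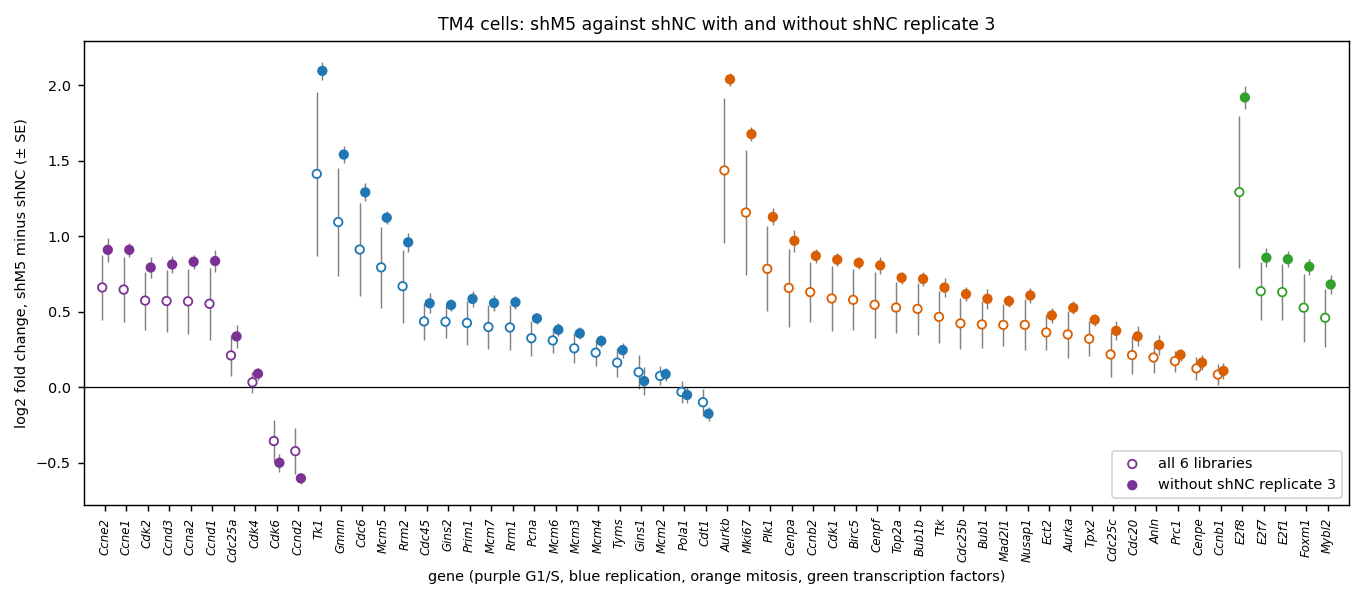
Log2 fold changes of the 58 genes in TM4 cells, shM5 minus shNC, with the standard error of the limma fit, sorted within each gene group. Open points use all 6 libraries and filled points leave out shNC replicate 3; the latter lie farther from 0 for every gene but Gins1 and have shorter error bars for all 58, and Ccnd2, Cdk6 and Cdt1 are the filled points below 0 that passed the test.

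Counted by overlap, 33 of the 58 genes had all 3 TM4 shM5 values above all 3 shNC values, where 15.7% of all genes did, and Ccnd2 and Cdk6 had all of them below, where 11.1% of all genes did. The 33 held 12 of 19 replication genes and 16 of 24 mitosis genes. shNC replicate 3 was nearer to the shM5 mean than to the mean of the other shNC libraries in 56 of 58 genes (96.6%) and in 84.9% of the 11016 genes tested, the exceptions among the members being Mcm2 and Gins1. shNC replicates 1 and 2, which had the lower cell cycle levels, also had the high ATF4 sums and the lower fibroblast or myoid sums given above, and the part of either in the result was not tested.

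C18-4 cells showed much smaller differences between shM5 and shNC. Members' log2 fold changes ran from -0.23 to 0.24, 22 genes were higher and 36 lower on average, and the medians were -0.03 over the members and 0.00 over 11611 genes. limma called 34 genes higher (0.293%) and 34 lower (0.293%), none of them a member, and 4 of 58 members had an unadjusted p below 0.05 where 12.3% of all genes did. The smallest adjusted p of a member was 0.196, that of Foxm1. Same-numbered C18-4 libraries deviated together, and with the replicate number as a block 1 member rose (Rrm2) and 3 fell (Cdk4, Prc1 and Foxm1), with 5.21% of all genes higher and 6.73% lower. Without replicate 3 of both groups, 3 rose (Ccnd1, Ccnd3 and Rrm2) and 12 fell, 7 of them mitosis genes, with 12.8% of all genes higher and 13.4% lower.

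The genes with the largest values in C18-4 cells came from several groups. Foxm1 was at 94.1, 96.9 and 90.98 RPKM in the C18-4 shNC libraries and 80.9, 81.7 and 77.8 RPKM in the C18-4 shM5 libraries. Every shM5 library was below every shNC library, and the log2 fold change was -0.23 ± 0.06 (SE, limma, adjusted p = 0.196), or -0.23 ± 0.04 (adjusted p = 0.0167) with the block. Gins1 was at 33.9, 30.6 and 32.3 RPKM in the C18-4 shNC libraries and 26.6, 26.9 and 29.3 RPKM in the C18-4 shM5 libraries, also without overlap, with -0.23 ± 0.08 (adjusted p = 0.302). Rrm2 was at 113, 106 and 84.1 RPKM in the C18-4 shNC libraries and 126, 124 and 106 RPKM in the C18-4 shM5 libraries. In each numbered pair the shM5 value was the higher, and the log2 fold change was 0.24 ± 0.13 (adjusted p = 0.527) without the block and 0.24 ± 0.05 (adjusted p = 0.0245) with it. Cdc25a was at 19.5, 18.4 and 14.3 RPKM in the C18-4 shNC libraries and 20.8, 21.1 and 18.7 RPKM in the C18-4 shM5 libraries. Cdc20 was at 72.5, 73.9 and 49.9 RPKM in the C18-4 shNC libraries and 61.8, 58.9 and 48.1 RPKM in the C18-4 shM5 libraries, where, as for Cdc25a, replicate 3 was the lowest of each group. Neither passed the test, with log2 fold changes of 0.22 ± 0.13 and -0.20 ± 0.17.

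Of the remaining named genes of C18-4 cells, Pcna and Nusap1 had groups that did not overlap, and many others were lowest or highest in replicate 3. Ccnd1 was at 29.8, 29.6 and 22.4 RPKM in the C18-4 shNC libraries and 34.3, 34.5 and 23.5 RPKM in the C18-4 shM5 libraries. Ccnd2 was at 14.6, 16.2 and 18.2 RPKM in the C18-4 shNC libraries and 15.5, 16.2 and 14.1 RPKM in the C18-4 shM5 libraries. Ccne1 was at 16.9, 16.6 and 12.3 RPKM in the C18-4 shNC libraries and 18.7, 18.03 and 13.3 RPKM in the C18-4 shM5 libraries. Ccnd1 and Ccne1 were lowest in replicate 3 of each group, whereas Ccnd2 had no common order. Tk1 was at 86.3, 82.4 and 62.5 RPKM in the C18-4 shNC libraries and 72.5, 71.7 and 66.4 RPKM in the C18-4 shM5 libraries. Mcm5 was at 92.7, 90.6 and 77.8 RPKM in the C18-4 shNC libraries and 87.7, 89.4 and 83.2 RPKM in the C18-4 shM5 libraries. Pcna was at 404, 379 and 397 RPKM in the C18-4 shNC libraries and 426, 423 and 427 RPKM in the C18-4 shM5 libraries. Pcna was the highest member in this line, and its shM5 values all lay above those of shNC with a log2 fold change of 0.11 ± 0.06 (adjusted p = 0.537). Cdc6 was at 46.4, 44.8 and 45.9 RPKM in the C18-4 shNC libraries and 42.5, 41.8 and 47.2 RPKM in the C18-4 shM5 libraries. Gmnn was at 62.01, 61.2 and 53.1 RPKM in the C18-4 shNC libraries and 72.7, 63.7 and 58.9 RPKM in the C18-4 shM5 libraries. For both the groups overlapped. Cdk1 was at 68.7, 64.95 and 52.5 RPKM in the C18-4 shNC libraries and 66.4, 66.1 and 54.6 RPKM in the C18-4 shM5 libraries. Ccnb1 was at 121, 116 and 84.7 RPKM in the C18-4 shNC libraries and 103, 104 and 91.1 RPKM in the C18-4 shM5 libraries. Aurkb was at 69.4, 69.4 and 44.3 RPKM in the C18-4 shNC libraries and 59.1, 55.3 and 47.5 RPKM in the C18-4 shM5 libraries. All 3 of these mitosis genes were lowest in replicate 3 of their group. Top2a was at 263, 265 and 249.8 RPKM in the C18-4 shNC libraries and 263, 264 and 233 RPKM in the C18-4 shM5 libraries. Birc5 was at 318, 301 and 274 RPKM in the C18-4 shNC libraries and 337, 335 and 308 RPKM in the C18-4 shM5 libraries. Nusap1 was at 82.1, 77.9 and 70.2 RPKM in the C18-4 shNC libraries and 68.8, 67.5 and 67.03 RPKM in the C18-4 shM5 libraries. Birc5 and Top2a were the mitosis genes with the highest level per length in C18-4 cells. Mki67 was at 65.3, 71.01 and 54.4 RPKM in the C18-4 shNC libraries and 68.6, 72.7 and 56.1 RPKM in the C18-4 shM5 libraries. E2f1 was at 15.1, 16.7 and 21.4 RPKM in the C18-4 shNC libraries and 15.97, 16.03 and 19.4 RPKM in the C18-4 shM5 libraries. E2f8 was at 12.8, 12.5 and 13.7 RPKM in the C18-4 shNC libraries and 13.3, 13.5 and 15.4 RPKM in the C18-4 shM5 libraries. Replicate 3 thus had the lowest Mki67 and the highest E2f1 of each group. By overlap, 3 of 58 members (Ccne2, Cdk2 and Pcna) had all shM5 values above all shNC values, where 9.3% of all genes did, and 8 had all below (Cdk4, Gins1, Prim1, Tyms, Ttk, Prc1, Nusap1 and Foxm1), where 9.55% did.

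Replication and mitosis genes parted in replicate 3 of C18-4 cells, where the mitosis mean moved more than the replication mean. In shNC replicates 1, 2 and 3, mean log2 levels were 6.118, 6.105 and 5.809 for mitosis and 6.267, 6.229 and 6.286 for replication. In shM5 they were 6.024, 6.014 and 5.836 for mitosis and 6.198, 6.175 and 6.301 for replication. Against the mean of replicates 1 and 2, replicate 3 had lower values in both shNC and shM5 for 20 of 24 mitosis genes and for 5 of 19 replication genes, and higher values in both for 1 mitosis gene and 14 replication genes. Over all 11611 genes the shares were 26.5% lower and 52.1% higher. The median log2 differences were -0.24 in shNC and -0.16 in shM5 for mitosis genes, 0.04 and 0.15 for replication genes, and 0.11 and 0.085 for all genes. Outside the 58, 24 of 36 other mitosis genes were lower in both and 29 of 36 other replication genes were higher in both. The differences of single genes were alike in the 2 groups, which share no library: across the 58 genes Pearson's r was 0.85, and across all genes 0.63. These values are a description, since a replicate number is not a treatment, and no test was made. The 10 ATF4 genes were higher in replicate 3 of both groups in 10 of 10 cases.

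The genes at the ends of this pattern were Plk1, Cdt1 and their neighbours, which were picked after their values were seen. Plk1 was at 77.9, 76.3 and 43.04 RPKM in the C18-4 shNC libraries and 65.7, 63.8 and 42.3 RPKM in the C18-4 shM5 libraries. Aurka, the centrosomal Aurora kinase, was at 103, 103 and 61.6 RPKM in the C18-4 shNC libraries and 99.1, 90.4 and 72.7 RPKM in the C18-4 shM5 libraries. Cenpa, the centromeric histone, was at 82.5, 76.4 and 50.6 RPKM in the C18-4 shNC libraries and 73.8, 70.3 and 49.2 RPKM in the C18-4 shM5 libraries. In all 3, replicate 3 was the lowest library of its group, by 0.84, 0.75 and 0.65 on the log2 scale in shNC. Cdt1 was at 63.7, 63.6 and 90.2 RPKM in the C18-4 shNC libraries and 57.7, 59.7 and 92.98 RPKM in the C18-4 shM5 libraries. Pola1 was at 15.6, 16.1 and 22.3 RPKM in the C18-4 shNC libraries and 15.6, 15.5 and 18.8 RPKM in the C18-4 shM5 libraries. Both were highest in replicate 3, by 0.50 and 0.49 in shNC and by 0.66 and 0.28 in shM5. Rrm2, Tk1, Rrm1, Mcm5 and Gmnn were the 5 replication genes that were lower there.

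**Figure D3:**
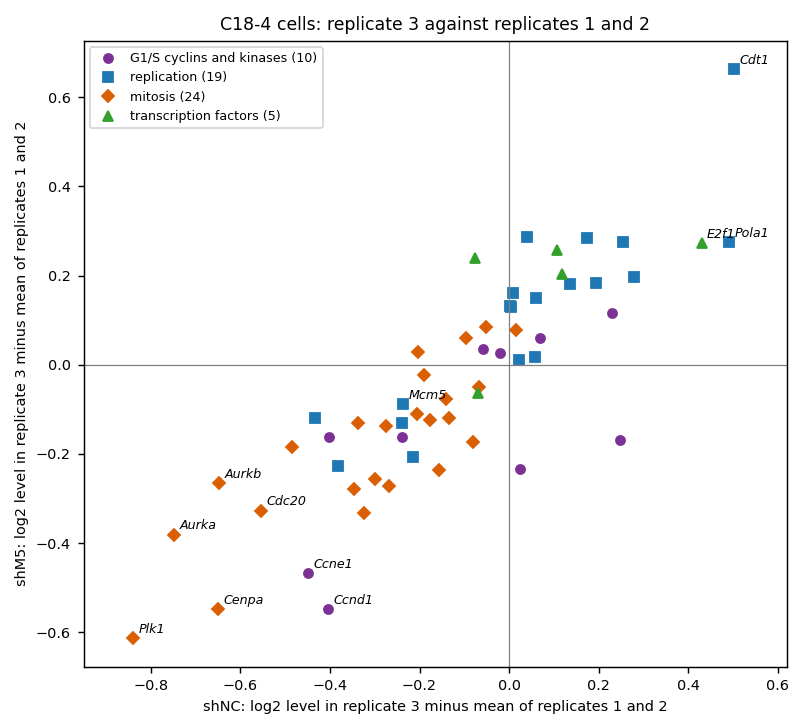
Each point is 1 of the 58 genes in C18-4 cells, placed by the log2 level in replicate 3 minus the mean of replicates 1 and 2, in shNC on the horizontal and in shM5 on the vertical axis. Mitosis genes lie mostly at the lower left, down to Plk1, and replication genes mostly at the upper right, up to Cdt1.

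The mean log2 level of the 19 replication genes minus that of the 24 mitosis genes puts this on 1 scale. In C18-4 cells it was 0.15, 0.12 and 0.48 in the shNC libraries and 0.17, 0.16 and 0.47 in the shM5 libraries. In TM4 cells it was 0.32, 0.30 and 0.19 in shNC and 0.23, 0.24 and 0.19 in shM5. Replicate 3 of each C18-4 group therefore had the highest value, and the groups overlapped in both lines. Group means were 0.25 ± 0.20 and 0.27 ± 0.17 in C18-4 shNC and shM5 (SD, n = 3) and 0.27 ± 0.07 and 0.22 ± 0.03 in TM4 shNC and shM5. The difference between shM5 and shNC was 0.02 in C18-4 cells and -0.05 in TM4 cells with all libraries, both smaller than the SD of the shNC group. Single libraries moved it: it was -0.087 in TM4 cells without shNC replicate 3, where the groups did not overlap, and ran from -0.082 to 0.13 in C18-4 cells when 1 library was left out, the ends being without replicate 3 of shM5 and of shNC. With the median over the genes of each group in place of the mean, the TM4 difference was -0.345. In TM4 cells the replication mean went from 5.33 in each of shNC replicates 1 and 2 to 5.83 in replicate 3 and 5.92 to 5.94 under shM5, and the mitosis mean went from 5.02 and 5.03 to 5.64 and 5.69 to 5.73, so that shNC replicates 1 and 2 were the lowest in both programmes.

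**Figure D4:**
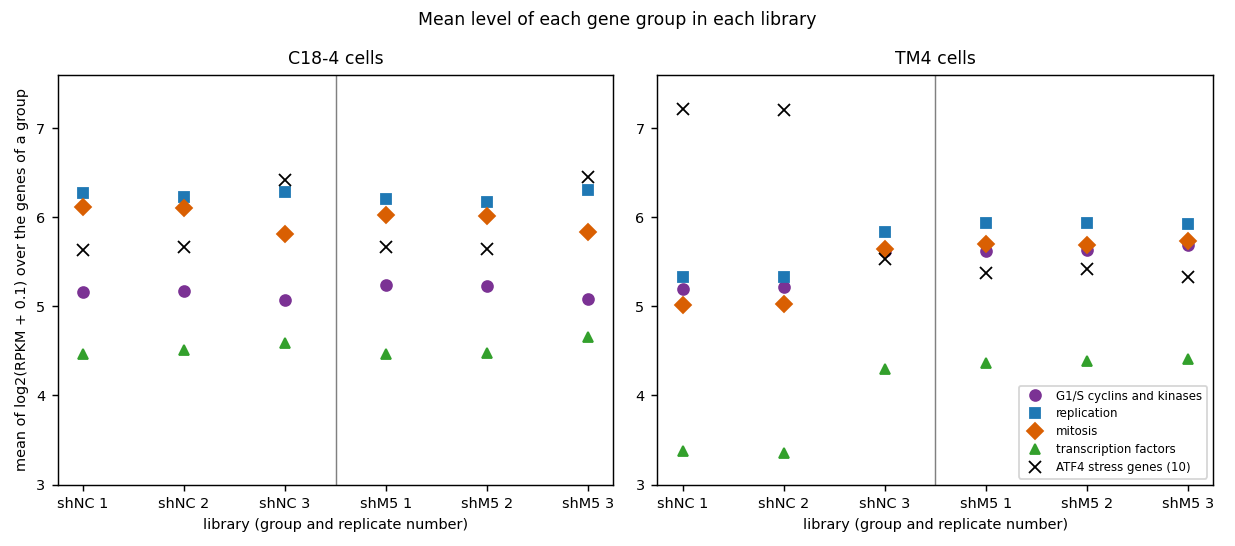
Mean log2(RPKM + 0.1) of each gene group (10 G1/S genes, 19 replication genes, 24 mitosis genes, 5 transcription factors) and of 10 ATF4 stress genes in each library, with C18-4 cells on the left and TM4 cells on the right. Among the TM4 libraries, the 4 cell cycle groups are lowest in shNC replicates 1 and 2, where the stress genes are at 7.22 and 7.20. In replicate 3 of both C18-4 groups mitosis genes are lower and stress genes higher than in replicates 1 and 2.

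Whether shM5 acted differently in the lines was tested in a fit of all 12 libraries. The C18-4 effect minus the TM4 effect was below 0 for 54 of 58 genes, with a median of -0.44 against -0.04 over 11773 genes, and no member passed by limma (smallest adjusted p = 0.164), where 0.034% of all genes were called higher and 0.068% lower. At an unadjusted p below 0.05 there were 31 of 58 members, against 20.9% of all genes. Aurkb had the largest value, -1.59 ± 0.55 (SE, limma, adjusted p = 0.197). Without TM4 shNC replicate 3, 46 members were called lower and 2 higher, which were Ccnd2 and Cdk6, with 21.5% of all genes lower and 16.4% higher. The median over the members was then -0.63. The calls thus depended on that library.

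Between the lines, most replication, mitosis and transcription factor genes were higher in C18-4 cells at shNC, fewer were at shM5, and the D-type cyclins were higher in TM4 cells in both. In the shNC libraries, 36 of 58 members were called higher in C18-4 cells and 5 lower, where 40.0% and 25.6% of all genes were. The 36 held 14 of 19 replication genes, 16 of 24 mitosis genes, 3 transcription factors (E2f7, E2f8 and Foxm1) and 3 G1/S genes (Ccne2, Cdk2 and Ccna2). The 5 were Ccnd1, Ccnd2, Ccnd3, Cdk4 and Ccne1. In the shM5 libraries, 25 members were called higher and 8 lower, where 37.0% and 24.2% of all genes were, and Tyms, Ttk and Cenpe joined the lower ones. The median difference over the members was 0.72 at shNC and 0.20 at shM5, against 0.15 and 0.12 over all genes. Scaling by median ratios, which brings the median of all genes to 0.00 and 0.01, gave 34 members higher and 8 lower at shNC and 17 higher and 10 lower at shM5, with medians of 0.57 and 0.09, and the calls over all genes were then 3926 higher and 3806 lower at shNC and 3738 higher and 3481 lower at shM5, against 4711 and 3014, and 4353 and 2845, as deposited.

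Values for single genes at shNC, with the levels given above, were led by Ccnd2, which ran from 14.1 to 18.2 RPKM in C18-4 and from 65.9 to 102 RPKM in TM4 libraries. Its log2 difference, C18-4 minus TM4, was -2.45 ± 0.14 (SE, limma, adjusted p = 2.11e-08) at shNC and -2.12 ± 0.14 (adjusted p = 8.01e-08) at shM5. Ccnd1 had -1.63 ± 0.23 (adjusted p = 6.76e-05) and -2.02 ± 0.23 (adjusted p = 1.16e-05). Ccne1 had -0.64 ± 0.21 (adjusted p = 0.0206) and -1.16 ± 0.21 (adjusted p = 0.000586). For these 3 cyclins no C18-4 library reached the lowest TM4 library of the same treatment.

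On the C18-4 side, Cdc6 had 1.95 ± 0.24 (SE, limma, adjusted p = 2.17e-05) at shNC and 0.97 ± 0.24 (adjusted p = 0.00389) at shM5. Nusap1 had 1.89 ± 0.14 and 1.30 ± 0.14, Birc5 had 1.85 ± 0.16 and 1.41 ± 0.16, and Top2a had 1.57 ± 0.13 and 1.004 ± 0.134, all with an adjusted p of at most 1.16e-06 at shNC and 4.76e-05 at shM5. These 4 genes were higher in every C18-4 library than in any TM4 library. Tk1 had 1.72 ± 0.42 (adjusted p = 0.00382) at shNC but 0.18 ± 0.42 (adjusted p = 0.727) at shM5, where the lowest C18-4 library (66.4 RPKM) lay just above the highest TM4 library (66.1 RPKM). Gmnn and Aurkb had 1.65 ± 0.28 and 1.69 ± 0.39 at shNC and 0.71 ± 0.28 (adjusted p = 0.0477) and 0.10 ± 0.39 (adjusted p = 0.836) at shM5. Tk1 and Aurkb thus passed the test at shNC and not at shM5, and the difference between these differences is the one tested above, in which no member passed with all libraries. Pcna was higher in C18-4 cells in both, by 0.74 ± 0.09 (adjusted p = 2.99e-05) and 0.53 ± 0.09 (adjusted p = 0.000435). Mcm5 was higher at shNC, by 0.71 ± 0.21 (adjusted p = 0.0109), and had -0.08 ± 0.21 (adjusted p = 0.753) at shM5. Gins1 had 0.99 ± 0.10 and 0.66 ± 0.10, with adjusted p of 3.83e-06 and 0.000112.

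Ccnb1 was higher in C18-4 cells by 0.72 ± 0.12 (adjusted p = 0.000251) at shNC and 0.54 ± 0.12 (adjusted p = 0.00203) at shM5. Cdk1 and Foxm1 were higher at shNC, by 1.11 ± 0.19 (adjusted p = 0.00028) and 1.25 ± 0.17 (adjusted p = 6.31e-05). At shM5 they had 0.53 ± 0.19 (adjusted p = 0.0271) and 0.49 ± 0.17 (adjusted p = 0.0275), and both calls were lost under median-ratio scaling (adjusted p = 0.0795 and 0.0756) and, for each gene, when any of 5 of the 6 shM5 libraries was left out. Both genes were nevertheless higher in every C18-4 library than in any TM4 library. Mki67 and E2f1 had 0.69 ± 0.33 (adjusted p = 0.0831) and 0.38 ± 0.18 (adjusted p = 0.0847) at shNC, and -0.41 ± 0.33 and -0.29 ± 0.18 at shM5. Without TM4 shNC replicate 3 the shNC differences of Rrm2, Mki67 and E2f1 became 0.60 ± 0.12, 1.21 ± 0.12 and 0.59 ± 0.14 and passed the test (adjusted p = 0.00101, 5.2e-06 and 0.00222), and 47 members were called higher and 5 lower. Cdc20 and Cdc25a did not pass in either comparison, at 0.22 ± 0.16 and 0.30 ± 0.14 at shNC. E2f8 had 1.21 ± 0.39 (adjusted p = 0.0164) at shNC and 0.03 ± 0.39 at shM5.

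**Figure D5:**
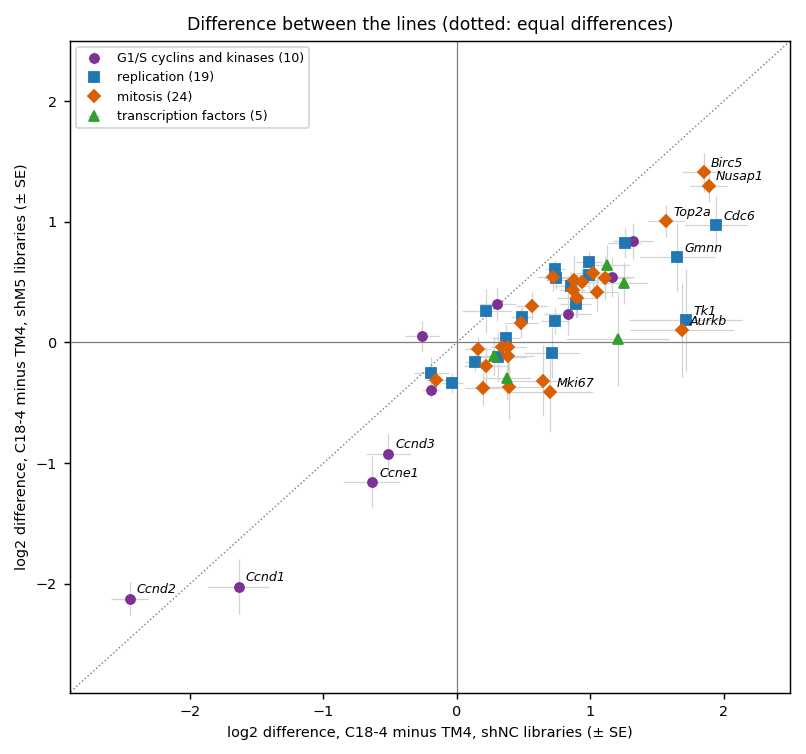
Log2 difference between C18-4 and TM4 cells for the 58 genes, in the shNC libraries on the horizontal and in the shM5 libraries on the vertical axis, with the standard errors of the limma fit. All points but Ccnd2, Cdk6, Cdc25a and Cdt1 lie below the dotted line of equal differences, Ccnd1 and Ccnd2 lie at the lower left, and Birc5 and Nusap1 at the upper right.

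Other genes of the same machinery were counted in the same fits. In TM4 cells with all libraries, 0 of 36 other replication genes and 0 of 36 other mitosis genes were called by limma, with 21 and 19 at an unadjusted p below 0.05 (58.3% and 52.8%, against 26.0% of all genes). Without shNC replicate 3, 24 other replication genes rose and 4 fell (66.7% and 11.1%, against 36.5% and 30.9% of all genes), led by the flap endonuclease Fen1 (1.88), Uhrf1 (1.40), which maintains DNA methylation, and the origin protein Orc1 (1.28). In the same fit 30 other mitosis genes rose and 3 fell (83.3% and 8.33%), led by the kinase Melk (1.79), Incenp (1.5) of the passenger complex and the condensin subunit Ncapd2 (1.42). In C18-4 cells none of the 72 was called, with 2 replication and 3 mitosis genes at an unadjusted p below 0.05 (5.56% and 8.33%, against 12.3% of all genes), and with the block Pold2 (-0.38) and Hmmr (-0.26) fell and Spc25 (0.24) rose, where 6.73% of all genes fell and 5.21% rose. Between the lines at shNC, 26 other replication genes were higher in C18-4 cells and 3 lower (72.2% and 8.33%, against 40.0% and 25.6% of all genes), led by Rpa1 (2.01), Fen1 (1.76) and Pold1 (1.76), and 25 other mitosis genes (69.4%) were higher and 0 lower by limma, with 25 at an unadjusted p below 0.05, led by Melk (1.55), Kif20a (1.25) and Pttg1 (1.18). At shM5, where 37.0% of all genes were higher and 24.2% lower, the shares of higher genes were near or below that of all genes, with 15 higher (41.7%) and 2 lower for replication, led by Rpa1 (1.40), Pold1 (0.997) and Rfc2 (0.95), and 9 higher of 36 and 1 lower for mitosis, led by Knl1 (0.97), Dlgap5 (0.95) and Ncaph (0.87). These values are log2 differences.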

How the data were processed

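RNA was enriched with oligo(dT) and sequenced on a HiSeq instrument, 3 libraries in each of 4 groups. The authors aligned reads with SOAPaligner 2.20 and deposited RPKM values, which are normalised for transcript length and library size and rounded to 2 decimals; the genome build and annotation are not given in the sources used here. Counts were not used here, so the depth of each library and the precision it gives are unknown. All 12 value columns were matched to libraries by name.

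Here, limma 3.58.1 in R 4.3.3 (linear model with moderated variances and a mean-variance trend) was run on log2(RPKM + 0.1) of genes whose mean over the libraries of a fit reached 0.5 RPKM, with Benjamini-Hochberg adjustment over all genes tested and calls at an adjusted p below 0.05. Every adjusted p in the text comes from these limma fits. Each line was fitted alone for shM5 against shNC, and all 12 libraries together for the lines and for the difference of the shM5 effects. Fold changes are on the log2(RPKM + 0.1) scale, which understates changes of low genes. The procedure was tested on simulated data with independent errors and a capped spread per gene. No simulated library stood apart, unlike in these data, so that test does not cover such libraries. Promoter sequences came from RefSeq, build GRCm38.p6, matched by gene symbol.

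Values in every library were given for 11 core genes, for the 5 members with the largest change in each of the 4 comparisons of groups, and for a few picked after their values were seen. Of the other lists, up to 3 called genes with the largest change were named. Members and lists were chosen with earlier results of these data known. Replicate numbers were taken to pair C18-4 libraries, since deviations of same-numbered libraries from their group means correlated across 11611 genes at 0.44, 0.41 and 0.63; replicates 1 and 2 also correlated when crossed, at 0.34 and 0.34, so the number mainly separated replicate 3. Alternatives were other pseudocounts, filters, scalings and thresholds, the replicate block, and leaving out libraries.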

Additional observations from a re-analysis of the deposited data

How the results depend on the processing

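By limma, the 0 members called for shM5 in C18-4 cells became 4 with the replicate block and 15 without replicate 3 of both groups, and lay between 0 and 15 over all fits that left out libraries. In TM4 cells 0 became 53 without shNC replicate 3 and 53 without replicate 3 of both groups (range 0 to 53), and for the difference of the shM5 effects 0 became 48 and 46 (range 0 to 48). Between the lines, the 41 calls at shNC and 33 at shM5 became 15 and 6 at the threshold of the study's methods (adjusted p of at most 0.001 and a log2 difference of at least 1), and ranged from 38 to 52 and from 23 to 39 when libraries were left out. Where 1 library of an arm of 3 was left out, the remaining ones were assumed to vary like the other groups. Same-numbered TM4 libraries correlated at 0.07, 0.05 and 0.13, so TM4 numbers were not taken as pairs; the replicate block left 0 members called there and for the difference of effects, and gave 47 and 37 between the lines. Over all genes, the 68 calls in C18-4 cells became 1386 with the block, 4 without a filter on low values, 29 with equal sums, 45 without the mean-variance trend and 3029 without replicate 3 of both groups, and 0 to 237 when 1 library was left out. The 0 in TM4 cells became 7433 without shNC replicate 3 and 8016 without both replicates 3. The 12 for the difference of effects became 4477 and 4056 in these fits, 27 with a pseudocount of 1, 21 without the filter, 22 without the trend, 4 and 5 with equal sums and median ratios, 2 with the block and 25 without replicate 3 of both C18-4 groups, and ran from 0 to 31 without any other single library. In C18-4 cells, the sign of the difference changed for 8 members with equal sums, 3 with median ratios, 14 without shM5 replicate 3, 12 without shNC replicate 3 and 10 without both. Replication minus mitosis, taken as the median over members, differed by -0.345 between TM4 shM5 and shNC, and by -0.172 and 0.204 between the lines at shNC and shM5. Leaving out libraries, chosen for this measure after seeing the data, gave -0.082 to 0.13 and -0.087 to -0.022 for shM5 in C18-4 and TM4 cells, and -0.131 to 0.045 and -0.054 to 0.098 between the lines. On the strand of the gene alone, CCAAT was in 40.0% of replication promoters, 61.9% of mitosis promoters and 23.7% of all promoters. The cause of these differences was not tested. Of the other values that answer a comparison, 145 were classed as unchanged, by their side of the threshold, by the spread or, for counts of members called, by similar size. Such a count could still change, as from 41 to 52 between the lines at shNC.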

Other observations

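Cell cycle inhibitors, pocket proteins and the further E2F, DP and MuvB subunits made a list of 22 genes outside the 58. In TM4 cells limma called 0 of 21 tested with all libraries, with 7 (33.3%) at an unadjusted p below 0.05, against 26.0% of all genes. Without shNC replicate 3, 11 (52.4%) rose with shM5 and 3 (14.3%; Cdkn2b, Rb1 and E2f3) fell, against 36.5% and 30.9% of all genes. Cdkn2d, which encodes the Cdk4 and Cdk6 inhibitor p19, was at 9.55, 8.36 and 21.2 RPKM in TM4 shNC and 25.3, 26.1 and 21.4 RPKM in TM4 shM5 libraries. Rbl2, the pocket protein p130 of quiescent cells, was at 3.60, 3.56 and 7.71 RPKM and 9.77, 9.11 and 8.09 RPKM. In both genes shNC replicates 1 and 2 were the lowest. Their log2 fold changes without shNC replicate 3 were 1.43 ± 0.10 (SE, limma, adjusted p = 1.28e-05) and 1.30 ± 0.09, and Rb1, the retinoblastoma gene, had -0.68 ± 0.08. An inhibitor and a pocket protein thus rose in the same fit as the replication and mitosis genes.

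In C18-4 cells 0 of 22 were called by limma, with 3 (13.6%) at an unadjusted p below 0.05, against 12.3% of all genes. With the replicate block Cdkn1c, the inhibitor p57, fell and E2f6, a repressor, rose. Cdkn1c was at 4.15, 5.07 and 8.35 RPKM in C18-4 shNC and 2.31, 2.60 and 2.68 RPKM in C18-4 shM5 libraries, and was listed at 0 in all TM4 libraries. Its log2 fold change was -1.12 ± 0.15 (SE, limma, adjusted p = 0.00568) with the block and had an adjusted p of 0.128 without it. E2f6 had 0.52 ± 0.07 with the block (adjusted p = 0.00364; 0.0537 without it). Between the lines, 10 (45.5%) were higher and 6 (27.3%) lower in C18-4 cells at shNC, near the 40.0% and 25.6% of all genes, and 7 (31.8%) were higher and 5 (22.7%) lower at shM5, near the 37.0% and 24.2% of all genes. Tfdp2, an E2F partner, had 2.196 ± 0.162 at shNC and 2.17 ± 0.16 at shM5, E2f6 had 1.38 ± 0.14 and 1.63 ± 0.14, and E2f4, an E2F of resting cells that was picked after its values were seen, as was Rb1, had -1.31 ± 0.07 and -1.32 ± 0.07.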
